A study of Mus musculus with 15 samples.

Results

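The kinesin genes were examined in group 2 innate lymphoid cells (ILC2s) of the mouse lung, as levels on 15 Affymetrix arrays. The members were all genes whose feature carried exactly 1 gene symbol of the form Kif or Kifc followed by a digit. This gave 42 genes of 22180 with 1 symbol, and the feature with the highest mean over all arrays stood for each of the 3 genes with more than 1 feature (Kif5b, Kif7 and Kif27). They comprised 12 kinesins that work in mitosis (Kif2c, Kif4, Kif11, Kif14, Kif15, Kif18a, Kif18b, Kif20a, Kif20b, Kif22, Kif23 and Kifc1), 29 other kinesins and the pseudogene Kif4-ps. Cenpe, the kinesin of the kinetochore, has a symbol of another form and was counted among the partners of mitotic kinesins.

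The arrays fell into 5 groups of 3 biological replicates. Effector adults, 3 arrays of females and 3 of males, had been given IL-33 through the nose on 3 days in a row, and their ILC2s were taken 1 day after the last dose. Neonates were untreated and 10 days old, with no sex given for an array. Naive adults, again 3 arrays of females and 3 of males, were untreated and 8 weeks old. IL-33 is an epithelial cytokine that activates ILC2s, which are lymphocytes without rearranged antigen receptors. All groups were total RNA of cells isolated as ILC2s. No group that received the vehicle through the nose, no age of the effector adults, no strain and no number of mice behind an array are given in the sources used here, so effector cells differ from naive cells in the dosing procedure as well as in IL-33. The p-values rest on the spread between arrays within groups, pooled for each gene over all 5 groups. They do not measure the spread of the compared groups alone.

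Kinesins are motor proteins that use ATP to move along microtubules or to take microtubules apart at their ends. Transport kinesins carry vesicles, organelles and protein complexes, mostly toward the plus ends at the cell's edge, in dividing and resting cells alike. Mitotic kinesins push the spindle poles apart, move and align chromosomes, set the length of spindle microtubules and build the midzone where the cell is cut in 2. Many mitotic genes are transcribed late in the cell cycle through a short promoter element called the cell cycle homology region (CHR), often with CCAAT boxes upstream. Naive ILC2s of the adult lung are mostly long-lived resident cells, which divide after IL-33, whereas ILC2s expand in the lung in the weeks after birth.

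The promoters of 6 mitotic kinesins and of Kif3a are shown, 100 bases before and 25 bases after the start of the RefSeq transcript on build GRCm38.p6. Kif11, Kif15, Kif22 and Kif23 are the mitotic kinesins with the largest differences between effector and naive adults, Kif18b and Kif20b carry doubled elements, and Kif3a is the other kinesin with the largest difference. Capitals mark the CHR (TTTGAA, or TTCAAA where it lies on the opposite strand), the CCAAT box (CCAAT or ATTGG) and, in Kif15, an E2F element (GCGCCAAA) that runs into the CHR. The sequences lie at chr19:37376282-37376406 on the + strand (Kif11), chr9:122950981-122951105 on the + strand (Kif15), chr7:127042396-127042520 on the - strand (Kif22), chr9:61946775-61946899 on the - strand (Kif23), chr11:102925100-102925224 on the - strand (Kif18b), chr19:34922258-34922382 on the + strand (Kif20b) and chr11:53567269-53567393 on the + strand (Kif3a).
Kif11: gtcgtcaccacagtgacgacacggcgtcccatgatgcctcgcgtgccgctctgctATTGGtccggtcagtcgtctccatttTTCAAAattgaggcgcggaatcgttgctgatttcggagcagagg
Kif15: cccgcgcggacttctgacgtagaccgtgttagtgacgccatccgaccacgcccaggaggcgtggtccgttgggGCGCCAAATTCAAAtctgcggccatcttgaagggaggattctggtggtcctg
Kif22: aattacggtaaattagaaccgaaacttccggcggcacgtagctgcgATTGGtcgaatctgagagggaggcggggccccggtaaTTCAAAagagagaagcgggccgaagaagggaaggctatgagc
Kif23: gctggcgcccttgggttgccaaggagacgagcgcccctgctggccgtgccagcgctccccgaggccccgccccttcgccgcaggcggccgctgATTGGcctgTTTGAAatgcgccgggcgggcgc
Kif18b: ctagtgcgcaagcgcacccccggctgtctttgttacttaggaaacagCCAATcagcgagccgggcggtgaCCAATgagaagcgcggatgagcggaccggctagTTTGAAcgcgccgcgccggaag
Kif20b: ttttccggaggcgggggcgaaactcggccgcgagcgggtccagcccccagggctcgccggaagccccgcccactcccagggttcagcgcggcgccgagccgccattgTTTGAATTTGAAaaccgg
Kif3a: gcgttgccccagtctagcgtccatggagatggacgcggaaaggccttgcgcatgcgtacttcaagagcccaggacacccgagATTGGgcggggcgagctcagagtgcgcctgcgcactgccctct

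The promoter table, which holds 250 bases before and 50 bases after each start, had entries for 11 of the 12 mitotic kinesins (not Kif20a), 22 of the 29 other kinesins and 27025 genes in all. TTTGAA or TTCGAA, on either strand, stood in 10 of the 11 mitotic kinesin promoters (90.9%), against 5 of the 22 other kinesins (22.7%) and 21.7% of all genes. The element was absent from the window of Kif18a. In 8 mitotic kinesins (72.7%) it lay within 25 bases of the start, against 1 other kinesin (4.55%, Kif26b) and 3.09% of all genes. That window was chosen after the members' promoters had been seen, so the contrast depends on where it was cut. The element of Kif24 (TTCGAA, bases -26 to -21) fell just outside it, and that of Kif4 (bases 20 to 25) lay at its edge. In Kif11, Kif15 and Kif22 it began 19, 19 and 17 bases before the start, and in Kif23 it began at base 3 after it. CCAAT on either strand was found in 7 mitotic kinesins (63.6%), against 9 other kinesins (40.9%) and 41.1% of all genes. All 7 of those mitotic kinesins also held the CHR, a pair found in 18.2% of the other kinesins and 8.61% of all genes. An E2F element (TTTGGCGC or TTTCGCGC, either strand) stood in Kif15 and Kif18a, in 0 of the 22 other kinesins and in 0.929% of all genes. These matches describe letters in a window, and binding of a factor was not measured.

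**Figure D1:**
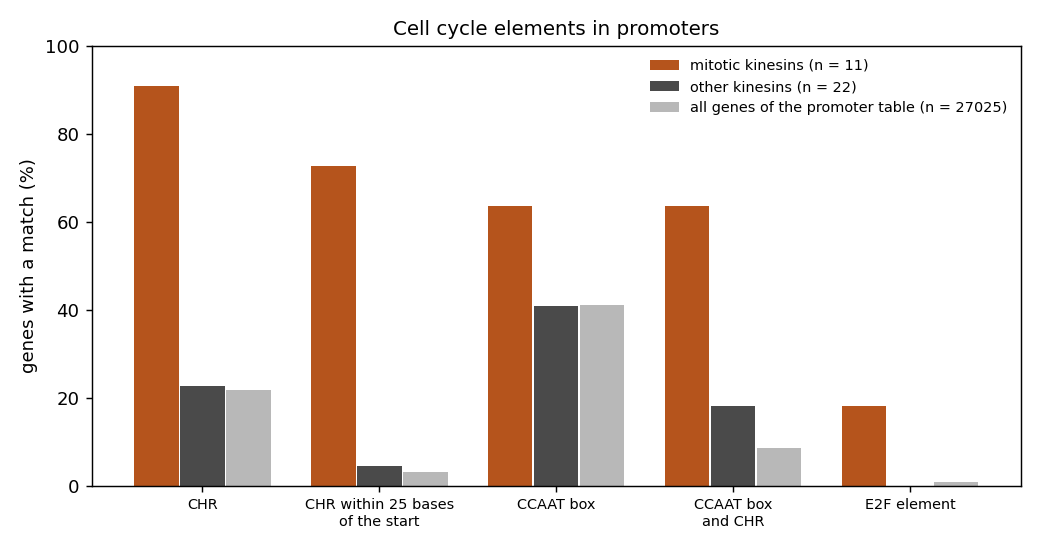
Percent of genes whose promoter (250 bases before to 50 after the start) holds each element, for mitotic kinesins, other kinesins and all genes of the promoter table, with the number of genes in the legend. CHR is the cell cycle homology region, which 90.9% of the mitotic kinesins hold, against 22.7% of the other kinesins and 21.7% of all genes.

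The cells carried the defining transcripts of ILC2s: all 11 measured markers of 12 listed, among them Gata3, Il7r and Il13, lay above the level of unused genes in each group. That level was taken as the upper quartile of 1429 olfactory, vomeronasal and taste receptor genes, which lymphocytes are not known to use. It was 3.34 to 3.42 on the log2 scale over the effector arrays, 3.62 to 4.005 over the neonatal arrays and 3.85 to 4.53 over the naive arrays, with the highest values in naive male arrays 2 (4.53) and 1 (4.22). Array medians lay between 4.44 and 4.64. Arrays of a group correlated at r = 0.962 to 0.974 in effector adults and 0.904 to 0.925 in neonates. In naive adults r was 0.931 to 0.960 in females and 0.911 to 0.914 in males. In bulk RNA, fewer cells that express a gene and less of its RNA per cell cannot be told apart.

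All 12 mitotic kinesins were higher in effector than in naive adults, and for each of them every effector array lay above every naive array. How many of all genes separate in this way was not counted, here or in the comparisons below. The log2 differences of the 12 mitotic kinesins ran between 1.46 (Kif14) and 4.27 (Kif11). Their median was 2.47, while the median of all genes was -0.06. Of the 29 other kinesins, 3 rose (Kif3a, Kif2a and Kif24), 1 fell (Kifc2) and 25 were not called, with a median difference of 0.11. Over all 22180 genes 26.7% were called, 16.6% as higher and 10.1% as lower, so the 12 of 12 mitotic kinesins stood against a background of 16.6%. The 3 of 29 other kinesins that rose did not exceed that background with the values as deposited. The threshold for a call was an adjusted p of 0.05, and the error given with a difference is the moderated standard error of the fit to all 15 arrays.

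**Figure D2:**
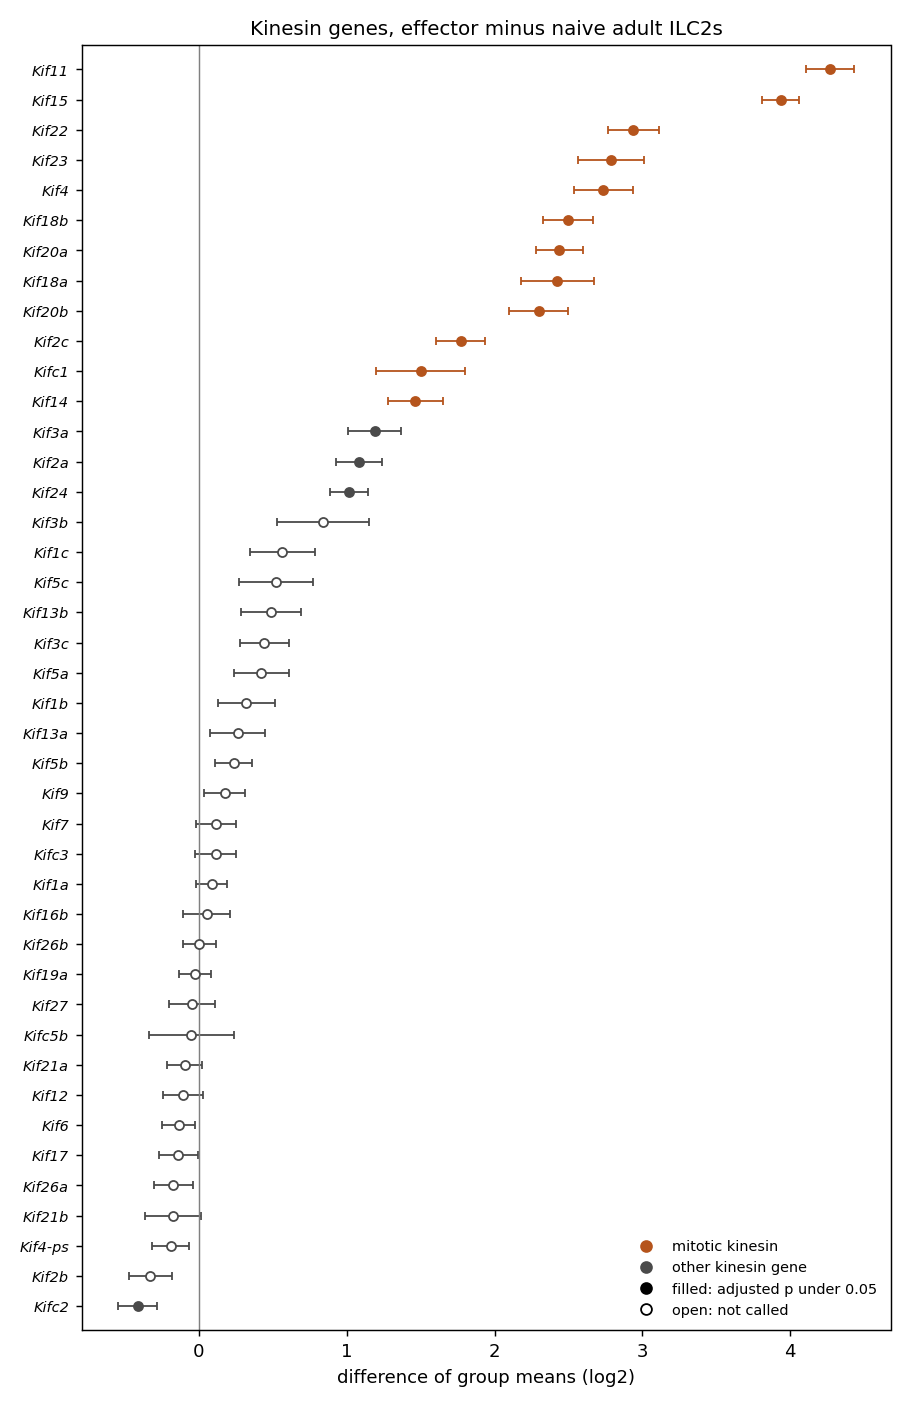
Difference between effector and naive adult ILC2s in the mean log2 level of each of the 42 kinesin genes, with bars of 1 standard error, filled points for called genes and colour for class. The 12 mitotic kinesins occupy the upper end, between 1.46 and 4.27, and every other kinesin gene lies between -0.42 (Kifc2) and 1.19 (Kif3a).

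Kif11, Kif15 and Kifc1 work in building and holding the bipolar spindle, and the first 2 of these had the largest differences of the 12. Kif11, also called Eg5, crosslinks antiparallel microtubules and slides them apart, which separates the spindle poles. Its log2 level was 8.29, 8.53 and 8.72 at the lowest, median and highest of the 6 effector arrays, 7.48, 7.63 and 8.10 in neonatal arrays 1, 2 and 3, and 3.70, 4.26 and 4.60 at the lowest, median and highest of the 6 naive arrays. The 3 groups formed separate ranges, with effector arrays highest and naive arrays close to the level of unused genes. Kif11 was 19.3-fold higher in effector than in naive adults (log2 difference 4.27 ± 0.16, adjusted p = 1.26e-10). That fold starts from a naive mean of 4.23, close to the level of unused genes in naive adults (4.09).

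Kif15 helps Kif11 to keep the poles apart and binds parallel microtubules of the spindle. It measured 7.26, 7.55 and 7.92 in effector arrays (lowest, median and highest here and below for the adult groups), 6.09, 5.97 and 6.43 in the 3 neonatal arrays and 3.31, 3.56 and 4.12 in naive arrays. The naive mean, 3.64, was under the level of unused genes in naive adults (4.09), and 35.4% of the 1429 sensory receptor genes had a higher naive mean than Kif15. The fold of Kif15 between effector and naive adults, 15.3 (log2 difference 3.94 ± 0.12, adjusted p = 3.27e-11), therefore starts from a signal that cannot be told from background. Kifc1 walks toward minus ends and gathers microtubules at the poles. Its levels were 6.35, 6.58 and 6.90 in effector arrays, 5.64, 4.59 and 6.41 in neonatal arrays and 4.52, 4.85 and 6.19 in naive arrays. Naive male array 2 (6.19) came close to the effector arrays, and the 3 neonatal arrays spread over the naive and effector ranges. The difference between effector and naive adults was 1.50 ± 0.30 (adjusted p = 0.00169), with the largest standard error among the mitotic kinesins. Kifc5b, a close relative of Kifc1, differed by -0.05 ± 0.29 and was not called, and the signal that the 2 genes may share on an array was not separated.

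The motors on chromosome arms and at kinetochores made the next group. Kif22, or Kid, binds DNA and pushes chromosome arms away from the poles. Kif22 measured 7.25, 7.63 and 7.93 in effector arrays, 6.28, 6.45 and 6.71 in neonatal arrays and 4.14, 4.74 and 5.29 in naive arrays. The 3 groups did not overlap, and the neonatal arrays lay between the adult groups. Its effector difference was 2.94 ± 0.17 (adjusted p = 9.94e-09). Kif4, the other chromokinesin, works with condensin and limits the length of midzone microtubules. It measured 6.36, 6.53 and 6.83 in effector arrays, 5.58, 5.32 and 6.48 in neonatal arrays and 3.40, 3.75 and 4.49 in naive arrays. Neonatal array 3 lay among the effector arrays, whereas the naive mean (3.81) was under the level of unused genes. Kif4 was higher in effector adults by 2.74 ± 0.20 (adjusted p = 1.03e-07), while the pseudogene Kif4-ps gave -0.19 ± 0.13 and was not called.

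Kif2c, or MCAK, removes tubulin from microtubule ends at centromeres and so corrects wrong attachments. It measured 6.02, 6.30 and 7.03 in effector arrays, 4.81, 5.36 and 5.12 in neonatal arrays and 4.31, 4.54 and 4.99 in naive arrays. Effector male array 3 stood above the other 5 effector arrays, and neonatal arrays overlapped the naive arrays. The difference between effector and naive adults was 1.77 ± 0.17 (adjusted p = 2.04e-06). Kif18a acts at the plus ends of kinetochore microtubules and damps the swings of chromosomes. It measured 6.04, 6.72 and 7.01 in effector arrays, 4.04, 5.27 and 5.40 in neonatal arrays and 3.54, 4.30 and 4.70 in naive arrays. Neonatal array 1 lay inside the naive range, and neonatal arrays 2 and 3 lay above it and below every effector array. Kif18a was higher in effector than in naive adults by 2.42 ± 0.25 (adjusted p = 3.99e-06). Kif18b, its paralog, shortens astral microtubules. Kif18b measured 6.99, 7.48 and 7.87 in effector arrays, 6.50, 6.60 and 7.17 in neonatal arrays and 4.61, 5.02 and 5.36 in naive arrays. Every naive array was below every other array, and neonatal array 3 fell in the effector range. Its effector difference was 2.50 ± 0.17 (adjusted p = 5.16e-08).

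The last group of mitotic kinesins works at the spindle midzone and in cytokinesis. Kif23, or MKLP1, forms centralspindlin with Racgap1 and bundles the microtubules between the separating chromosomes. It measured 7.76, 8.09 and 8.34 in effector arrays, 7.70, 7.24 and 7.43 in neonatal arrays and 3.94, 5.49 and 5.98 in naive arrays. The 3 groups did not overlap, and the naive arrays had the widest range of the 3, with naive male arrays 1 and 2 lowest. Kif23 was higher in effector than in naive adults by 2.79 ± 0.22 (adjusted p = 3.02e-07). Kif20a, or MKLP2, brings Aurora B to the midzone. It measured 6.54, 6.80 and 6.96 in effector arrays, 5.24, 5.49 and 6.02 in neonatal arrays and 3.85, 4.42 and 4.67 in naive arrays, again without overlap between the 3 groups. The difference between effector and naive adults was 2.44 ± 0.16 (adjusted p = 3.59e-08).

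Kif20b, a slower motor of the same family, is needed for the final cut between daughter cells. It measured 6.82, 7.21 and 7.33 in effector arrays, 5.25, 5.55 and 6.38 in neonatal arrays and 4.35, 4.84 and 5.35 in naive arrays. Neonatal array 1 lay inside the naive range and array 3 stood well above it. Kif20b was higher in effector than in naive adults by 2.30 ± 0.20 (adjusted p = 8.47e-07). Kif14 recruits citron kinase to the midbody. It measured 5.12, 5.61 and 6.38 in effector arrays, 5.53, 5.18 and 5.13 in neonatal arrays and 3.71, 4.30 and 4.57 in naive arrays. The effector and neonatal ranges overlapped, and both stood above all naive arrays. Kif14 had the smallest effector difference of the 12, 1.46 ± 0.19 (adjusted p = 3.87e-05).

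**Figure D3:**
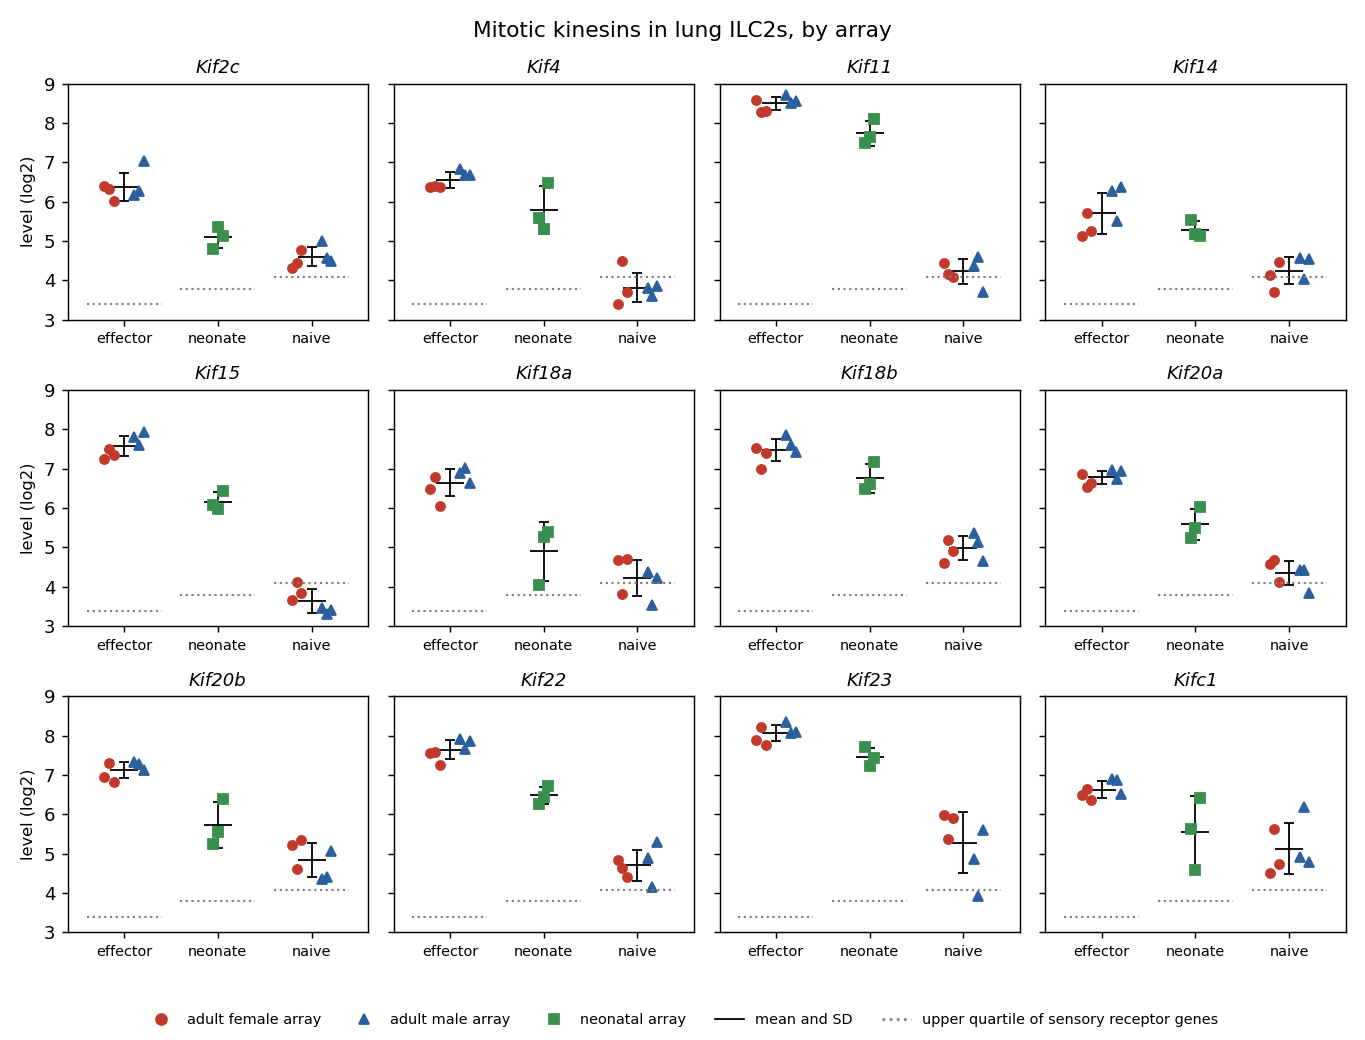
Log2 level of each mitotic kinesin on all 15 arrays, by group, with 1 point per array (circles for adult females, triangles for adult males, squares for neonates), the group mean with its SD (n = 6 effector, 3 neonatal and 6 naive arrays) and a dotted line at the upper quartile of sensory receptor genes in that group. Effector points lie above naive points in all 12 panels, and neonatal array 3 is the highest of the 3 neonatal arrays in 9 of them.

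Averaged over the 12 mitotic kinesins, the log2 level was 7.09 ± 0.20 in effector arrays (SD, n = 6), 6.04 ± 0.31 in neonatal arrays (n = 3) and 4.50 ± 0.10 in naive arrays (n = 6). The same average over the 29 other kinesins was 5.44 ± 0.06 in effector arrays, 5.37 ± 0.08 in neonatal arrays and 5.23 ± 0.09 in naive arrays. The level of unused genes ran in the opposite direction, with upper quartiles of 3.39 in effector, 3.79 in neonatal and 4.09 in naive arrays. The 12 effector calls held in all 26 alternative settings, with a difference of Kif14 between 1.36 and 1.60 and of Kif11 between 4.14 and 4.53.

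Neonatal ILC2s were compared with naive adults to show which kinesins differ by age in untreated cells. In neonates 9 of the 12 mitotic kinesins were higher than in naive adults, with a median difference of 1.51 over the 12, against 4.5% of all genes called higher and 2.68% called lower. The largest differences were those of Kif11 (3.51 ± 0.20, 11.4-fold, adjusted p = 2.70e-07), Kif15 (2.53 ± 0.15, adjusted p = 2.70e-07) and Kif23 (2.18 ± 0.27, adjusted p = 0.000194). Kif4 (1.98 ± 0.24), Kif18b (1.78 ± 0.21), Kif22 (1.78 ± 0.21), Kif20a (1.24 ± 0.20) and Kif14 (1.03 ± 0.23) were also called, with every neonatal array above every naive array. For Kif20b the difference was 0.89 ± 0.25 (adjusted p = 0.0421) with overlapping arrays. Kif18a (0.68 ± 0.30, adjusted p = 0.189), Kif2c (0.50 ± 0.21, 0.162) and Kifc1 (0.42 ± 0.37, 0.546) were not called. In limma's test 0 of the 29 other kinesins were called, 4 had an unadjusted p under 0.05 (5092 of all genes did), and Kif2a came nearest (0.63 ± 0.19, adjusted p = 0.0584).

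Some neonatal calls lay near the threshold. That of Kif20b was lost in 12 of the 15 fits that each left out 1 array (any effector array, neonatal array 2 or 3, naive female array 1 or 2, naive male array 1 or 2), at adjusted p between 0.0504 and 0.166, and its difference was 0.56 without neonatal array 3 and 0.78 to 0.98 in the other 11, 0.89 without any of the effector arrays. With array weights Kif20b was 0.92 (adjusted p = 0.108), and fitted on only the arrays compared it was 0.89 (adjusted p = 0.144). Kif14 was 0.91 (adjusted p = 0.0651) without neonatal array 1. Kif18a reached the threshold without neonatal array 1, at 1.11 (adjusted p = 0.0346). Kif2a reached it without neonatal array 2 (0.80, adjusted p = 0.0302) or naive male array 1 (0.74, adjusted p = 0.0184). Neonatal array 3 had the highest mean over the mitotic kinesins, 6.40, against 5.84 in array 1 and 5.89 in array 2, and the highest Mki67, a proliferation marker, at 9.71, against 9.26 and 9.56.

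Set against effector adults, neonates had lower levels of 9 of the 12 mitotic kinesins, with a median difference of -1.12, while 10.2% of all genes were called lower and 7.02% higher. This comparison shares its neonatal arrays with the preceding one and its effector arrays with the first. Kif18a (-1.74 ± 0.30, adjusted p = 0.00148), Kif20b (-1.41 ± 0.25), Kif15 (-1.41 ± 0.15), Kif2c (-1.27 ± 0.21), Kif20a (-1.20 ± 0.20) and Kif22 (-1.16 ± 0.21) were lower with no overlap of arrays. Kif11 was lower by less, -0.76 ± 0.20 (adjusted p = 0.0167), without overlap, and Kif4 (-0.76 ± 0.24, adjusted p = 0.0448) and Kif18b (-0.72 ± 0.21, adjusted p = 0.0294) were called with overlapping arrays. Kifc1 (-1.08 ± 0.37, adjusted p = 0.0545), Kif23 (-0.61 ± 0.27, 0.137) and Kif14 (-0.43 ± 0.23, 0.206) were not called. Among the other kinesins Kif24 (-0.92 ± 0.16) and Kif3a (-0.70 ± 0.22) were lower and Kifc2 (0.62 ± 0.16) was higher in neonates.

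Several of these differences crossed the threshold under other settings, and none of the differences recomputed for this comparison changed sign in the settings run. After a further quantile normalization 6 of the 12 were called: Kif11 (-0.60, adjusted p = 0.0589), Kif18b (-0.50, 0.148) and Kif4 (-0.62, 0.122) were not. Array weights also ended the calls of Kif18b (-0.72, adjusted p = 0.0773) and Kif4 (-0.70, 0.118), and centring each array on its median added that of Kifc1 (-1.19, adjusted p = 0.0409). The call of Kif4 was lost in 10 of the 15 fits that left out 1 array (any of the 6 effector arrays, neonatal array 1 or 2, naive female array 3, naive male array 1), and its difference was -0.52 without neonatal array 2, -0.65 without neonatal array 1 and -0.77 to -0.73 in the other 8. Kif18b lost its call in 5 of them (female array 1 or 3 or male array 1 of the effector adults, neonatal array 1 or 2), with -0.59 without neonatal array 1. Kif11 was -0.63 (adjusted p = 0.0737) without neonatal array 1 and -0.70 (adjusted p = 0.0689) without array 2. Kif3a lost its call in 7 (female array 1 or 2 or male array 2 or 3 of the effector adults, neonatal array 1 or 2, naive female array 1), with -0.60 without neonatal array 1. Kifc2 was 0.45 (adjusted p = 0.0886) without neonatal array 2. In the other direction, Kifc1 was called without neonatal array 3 (-1.52, adjusted p = 0.0127), naive female array 2 or naive male array 2, Kif23 without naive male array 2 (adjusted p = 0.0466), Kif2a (-0.63, adjusted p = 0.0441) and Kif3b (-1.51, adjusted p = 0.00742) without neonatal array 3, and Kif21b without neonatal array 1.

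**Figure D4:**
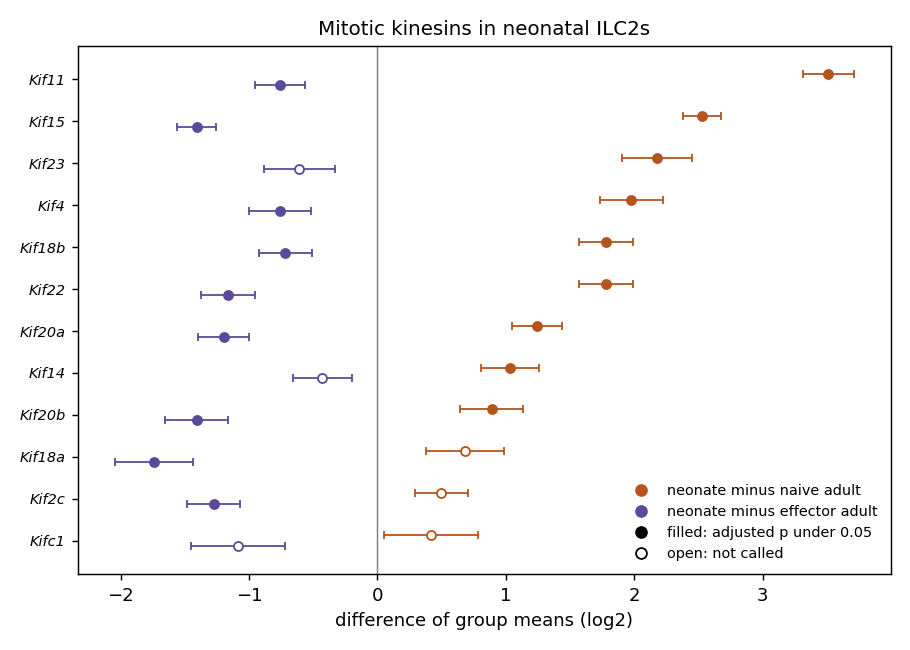
Differences in mean log2 level for the 12 mitotic kinesins, neonate minus naive adult and neonate minus effector adult, with bars of 1 standard error and filled points for called genes. All 12 lie right of 0 against naive adults, between 0.42 and 3.51, and left of 0 against effector adults, between -1.74 and -0.43. The 2 comparisons share the neonatal arrays.

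Among the other kinesins, the called rises were those of Kif2a and Kif24, relatives of Kif2c, and of Kif3a, a motor subunit of kinesin-II. A further relative of Kif2c, Kif2b, was not called (-0.33). Kif2a, which removes tubulin from microtubule ends at spindle poles and in growing neurites, measured 7.64, 7.90 and 8.09 in effector arrays, 7.45, 7.09 and 7.78 in neonatal arrays and 6.44, 6.90 and 7.15 in naive arrays. Effector arrays lay above all naive arrays, with neonatal arrays overlapping both. The effector difference was 1.08 ± 0.15 (adjusted p = 0.000106). Kif24 sits on the mother centriole, where it holds back the growth of a cilium. It measured 5.05, 5.45 and 5.79 in effector arrays, 4.66, 4.45 and 4.38 in neonatal arrays and 4.15, 4.34 and 4.78 in naive arrays. Neonatal and naive arrays overlapped and all effector arrays lay above both. Kif24 was higher in effector adults by 1.02 ± 0.13 (adjusted p = 3.68e-05).

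Kif3a and Kif3b are the motor subunits of kinesin-II, which with the adaptor Kifap3 carries intraflagellar transport trains into cilia and other cargo in cells without one. Kif3a measured 6.63, 6.95 and 7.30 in effector arrays, 6.06, 6.12 and 6.62 in neonatal arrays and 4.86, 5.95 and 6.16 in naive arrays. Its effector arrays were above all naive and neonatal arrays, and naive male array 2 was lowest. The effector difference was 1.19 ± 0.18 (adjusted p = 0.000167). Kif3b measured 6.33, 7.03 and 7.59 in effector arrays, 5.54, 5.48 and 7.23 in neonatal arrays and 5.47, 6.21 and 6.92 in naive arrays. The groups overlapped, and neonatal array 3 stood far above arrays 1 and 2. Kif3b differed by 0.84 ± 0.31 between effector and naive adults (adjusted p = 0.0577), which passed the threshold without effector male array 2 (1.02, adjusted p = 0.0277), neonatal array 3 (adjusted p = 0.0174) or naive male array 1 (1.02, adjusted p = 0.0252).

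Kifc2, a minus-end motor known from dendrites, was the only other kinesin called lower in effector adults. It measured 4.57, 4.74 and 5.04 in effector arrays, 5.19, 5.75 and 5.28 in neonatal arrays and 4.93, 5.17 and 5.52 in naive arrays. Effector and naive arrays overlapped, while neonatal arrays lay above all effector arrays. The effector difference was -0.42 ± 0.13 (adjusted p = 0.0268). It was not called after centring each array on its median (-0.28, adjusted p = 0.126), after a further quantile normalization (-0.32, adjusted p = 0.12) or in 5 of the 15 fits that left out 1 array (female array 1 or 2 or male array 3 of the effector adults, naive female array 3, naive male array 1; -0.34 to -0.42, adjusted p = 0.0519 to 0.0771).

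Kif5b, Kif1b and Kif21b, motors of cargo transport or regulators of its tracks, were not called in any of the 3 comparisons with the values as deposited. Kif5b, the heavy chain of conventional kinesin, measured 9.01, 9.12 and 9.25 in effector arrays, 8.62, 8.92 and 9.06 in neonatal arrays and 8.65, 8.89 and 9.12 in naive arrays, and differed by 0.23 ± 0.13 between effector and naive adults (adjusted p = 0.187). With arrays centred on their own medians, Kif5b was called higher in effector adults (0.37, adjusted p = 0.0472). A dimmer feature of Kif5b, with a mean of 3.82 over all arrays, differed by -0.34. Kif1b, which carries mitochondria and vesicle precursors, measured 6.91, 7.05 and 7.11 in effector arrays, 6.68, 6.02 and 7.20 in neonatal arrays and 6.25, 6.84 and 7.10 in naive arrays. The effector arrays of Kif1b were tightly grouped inside the naive range or at its upper edge, and the difference was 0.32 ± 0.19 (adjusted p = 0.236). Kif21b, which slows microtubule growth and is known from neurons and T cells, measured 6.70, 6.95 and 7.45 in effector arrays, 6.87, 7.60 and 7.98 in neonatal arrays and 6.94, 7.14 and 7.56 in naive arrays. All 3 groups overlapped, and the difference between effector and naive adults was -0.18 ± 0.19 (adjusted p = 0.523).

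**Figure D5:**
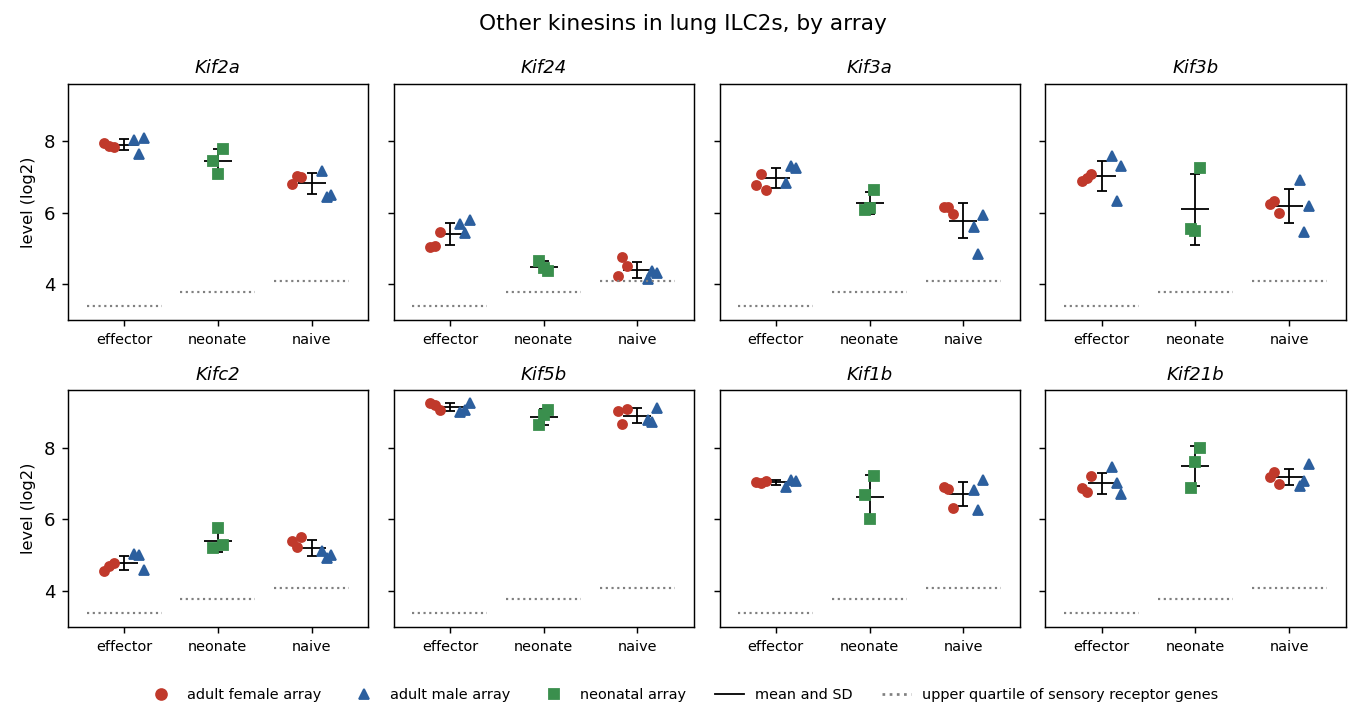
Log2 level of 8 other kinesins on all 15 arrays, by group, with symbols, means, SDs and dotted lines as for the mitotic kinesins. Kif2a, Kif24 and Kif3a have every effector array above every naive array, and Kif3b, Kifc2, Kif5b, Kif1b and Kif21b do not.

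The 25 other kinesins not called between effector and naive adults had differences between -0.33 (Kif2b) and 0.84 (Kif3b), and 10 of the 29 other kinesins reached an unadjusted p under 0.05, as did 8575 of all 22180 genes. Kif21a and Kif9 lay at or under the level of unused genes in all 3 groups, Kif27 and Kif2b in neonatal and naive adult cells and Kif1a in naive adult cells. Calls for the other kinesins depended on scaling. Centring each array on its median turned 3 higher and 1 lower into 9 higher and 0 lower. Over all 22180 genes, 4838 were then called higher and 1186 lower, against 3690 and 2236 as deposited. Centring moved the median of all genes by over 0.1 (0.08, against -0.06 as deposited). It put the share of higher among called genes at 80.3%, against 62.3% as deposited. The 12 mitotic kinesins were called higher under either scaling, with a median of 2.61 after centring.

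Partners of the mitotic kinesins moved in the same direction. Of 21 measured genes of a list of spindle, centromere and cytokinesis proteins, 20 rose in effector adults (median 2.92), against 16.6% of all genes called higher. The largest were Cdk1 (4.12 ± 0.18), the kinase that drives entry into mitosis, Birc5 (3.94 ± 0.16) of the chromosomal passenger complex, Ect2 (3.65 ± 0.21), the exchange factor for RhoA at the cleavage site, and Nusap1 (3.41 ± 0.23), a spindle microtubule binder. Numa1 (0.12) was the member not called. Against naive adults, 18 of the 21 were higher in neonates (background 4.5% of all genes), and against effector adults 15 were lower in neonates (background 10.2%). Racgap1 and Cit were named after their values were seen, because they bind members. Racgap1, the partner of Kif23, was 2.96 ± 0.23 higher in effector than in naive adults, and Cit, the citron kinase that binds Kif14, 2.55 ± 0.13. All 10 proliferation genes rose in effector adults, among them Mki67 (4.87 ± 0.22), Top2a (4.43 ± 0.15), Ccna2 (3.91 ± 0.33) and Mcm3 (2.84 ± 0.13), and 8 of them were higher in neonates than in naive adults, beside the same 16.6% and 4.5% of all genes. The levels summed over these 10 genes on the linear scale were 6853 to 9206 in effector arrays, 3592 to 4527 in neonatal arrays and 1703 to 2220 in naive arrays.

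Partners of transport kinesins moved less. Of 18 measured adaptors and cargo links of kinesins, 3 rose in effector adults, Trak1 (0.95 ± 0.14), which ties Kif5 to mitochondria, Kifap3 (0.80 ± 0.19), the adaptor of Kif3a and Kif3b, and Plekhm2 (0.56 ± 0.16), which ties Kif5 to lysosomes, with a list median of 0.26. Against the 16.6% of all genes called higher, this share is near the background. Spag9, a scaffold of kinesin and dynein cargo, was the adaptor called in neonates, 1.43 ± 0.24 higher than in naive adults. Of 22 measured subunits and regulators of dynein, the minus-end motor, 10 rose and 1 fell in effector adults (median 0.46). Over all genes 16.6% were called higher and 10.1% lower. The rises were led by Nde1 (1.27 ± 0.15), Actr1a (0.70 ± 0.23), Dync1li1 (0.68 ± 0.18) and Bicd2 (0.63 ± 0.19), and the fall was that of Dctn6 (-0.39 ± 0.11). Of 14 tubulins, 7 rose and 1 fell, beside the same shares of all genes. Tubb6 (2.07 ± 0.24), Tubg1 (1.95 ± 0.20), which nucleates microtubules, and Tubb5 (1.39 ± 0.11) gave the largest rises and Tuba8 (-1.13 ± 0.21) the fall. In neonates Tubb5 was higher (0.85 ± 0.13) and Tuba1b lower (-1.47 ± 0.19) than in naive adults.

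The cargo of kinesin-II in cilia, the intraflagellar transport proteins, rose in part. Of 18 measured, 10 rose in effector adults with a median of 0.46, against 16.6% of all genes called higher, led by Ift57 (1.53 ± 0.24), Ift74 (1.29 ± 0.21), Ift80 (1.18 ± 0.23) and Wdr35 (1.09 ± 0.23). Against naive adults 1 was lower in neonates, Ift43 (-0.72 ± 0.21), and against effector adults 8 were lower in neonates, where 2.68% and 10.2% of all genes were called lower. Markers of ciliated cells, in which these genes are abundant, summed on the linear scale to 254 to 397 in effector arrays, 181 to 185 in neonatal arrays and 141 to 180 in naive arrays over 8 measured of 10 listed. Only 2 of those 8 were called in effector adults, Tppp3 (2.88 ± 0.25) and Rsph1 (0.45 ± 0.14), and Foxj1, the master regulator of motile cilia, had means of 3.70 in effector, 3.78 in neonatal and 3.79 in naive arrays, near the level of unused genes. The part of ciliated cells in the Kif3a, Kif24 and intraflagellar transport values was not tested.

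Markers of other cells also differed between the groups. Between neonates and naive adults 4.5% of all genes were called higher in neonates and 2.68% lower. Mast cell and basophil markers summed to 157 to 334 in effector arrays, 1491 to 1579 in neonatal arrays and 177 to 572 in naive arrays, and the 1 of 4 called in neonates against naive adults was Cpa3 (2.43 ± 0.20). Cpa3 made the largest part of the sum, with means of 7.10 in effector, 10.43 in neonatal and 8.01 in naive arrays. Mcpt8 had means of 6.58 in neonatal and 4.78 in naive arrays, and Ms4a2 4.15 and 4.22. Fcer1a (2.70 and 2.85) lay under the level of unused genes in each group. T cell markers summed to 707 to 1068 in effector arrays, 1272 to 1829 in neonatal arrays and 1135 to 1607 in naive arrays, with 1 of 6 called in neonates against naive adults, Cd3e (1.21 ± 0.25). The largest part of that sum was Cd3g, with means of 9.65 in effector, 10.37 in neonatal and 10.22 in naive arrays. Cd4 had means of 4.22, 4.38 and 4.45. Epithelial markers summed to 151 to 268 in effector arrays, 246 to 447 in neonatal arrays and 163 to 302 in naive arrays, with 2 of 6 called in that comparison, Sftpc (1.98 ± 0.46) and Nkx2-1. Of B cell, NK cell, macrophage, neutrophil, endothelial, fibroblast and erythroid markers, none was called between neonates and naive adults by limma. These lists were grouped because they held no call, so their joint count of 0 follows from the grouping. An unadjusted p under 0.05 was reached by 10 of their 32 genes and by 5092 of all 22180 genes. Between neonates and effector adults 7.02% of all genes were called higher in neonates. Of 5 fibroblast markers 4 were higher there (Col1a1 0.43, Col1a2 0.51, Col3a1 0.71 and Dcn 0.78). The level of unused genes was also higher in neonates, 3.79 against 3.39 in effector adults. Dcn lay under that level in both groups (means 3.66 in neonatal and 2.88 in effector arrays), and Col1a1, Col1a2 and Col3a1 lay above it. The part of these cells in the kinesin values of neonates was not tested.

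Between effector and naive adults most called markers of other cells were lower in effector adults. Of all genes, 10.1% were called lower and 16.6% higher in that comparison. Of 6 endothelial markers 3 were lower (Cldn5, -1.06 ± 0.18, Ptprb, -1.24 ± 0.21 and Tek, -0.66 ± 0.20), and the 6 summed to 301 to 346 in effector arrays and 189 to 429 in naive arrays. Pecam1, the brightest of the 6, was not called, with means of 7.89 in effector and 7.43 in naive arrays. Of 6 T cell markers Cd3g (-0.58 ± 0.14) and Cd8b1 (-0.56 ± 0.18) were lower, of 5 neutrophil markers Ly6g (-0.77 ± 0.23) and S100a9 (-0.63 ± 0.18), of 4 NK cell markers Klrb1c (-0.63 ± 0.21) and of 4 mast cell and basophil markers Cpa3 (-0.90 ± 0.16). Of 6 macrophage markers Adgre1 (-0.47 ± 0.15) and Mrc1 (-0.57 ± 0.19) were lower and Cd68 (0.63 ± 0.17) was higher. Of 4 B cell markers Cd79b (1.00 ± 0.24) was higher. The level of unused genes was itself lower in effector adults, 3.39 against 4.09 in naive adults. Ly6g lay under that level in both groups (means 2.84 in effector and 3.61 in naive arrays). Tek (3.45 and 4.11) and Cd8b1 (3.53 and 4.09) lay close to it, whereas Cd3g (9.65 and 10.22) and Cpa3 (7.10 and 8.01) lay far above it. Whether falls near that level reflect fewer cells was not tested. Epithelial, fibroblast and erythroid markers had no call by limma, and none of their 13 measured genes had an unadjusted p under 0.05, while 8575 of all 22180 genes did. The part of these cells in the effector values of the kinesins was not tested.

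The rise of the mitotic kinesins was present in each sex. In females all 12 were higher in effector than in naive adults (median 2.21, background 6.79% called higher), and in males likewise all 12 (median 2.73, background 12.7%). The largest differences were 4.17 ± 0.23 for Kif11 and 3.49 ± 0.17 for Kif15 in females, and 4.37 ± 0.23 for Kif11 and 4.39 ± 0.17 for Kif15 in males. Leaving out 1 array at a time kept 11 or 12 of the 12 calls in each sex. Among the other kinesins, Kif24 (0.68 ± 0.18) and Kif2a (0.94 ± 0.22) rose and Kifc2 (-0.70 ± 0.18) fell in females, and Kif3a (1.65 ± 0.25), Kif24 (1.36 ± 0.18) and Kif2a (1.23 ± 0.22) rose in males.

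A difference between the sexes in this response was tested directly, as the female minus the male difference. No gene was called by limma (0% of 22180), with 1053 genes at an unadjusted p under 0.05, among them 6 of the 42 kinesin genes. The female minus male value was -0.90 ± 0.25 for Kif15 (adjusted p = 0.823), -1.16 ± 0.45 for Kif23 (0.997) and -0.91 ± 0.36 for Kif3a (0.997). A negative value was found in 11 of the 12 mitotic kinesins, which rise and fall together over the arrays, and in 12116 of all 22180 genes. Without naive male array 3, 3 genes were called, and without neonatal array 2, naive male array 1 or naive male array 2, 1 gene. In naive adults 0.135% of genes differed between females and males, and no kinesin was among them, by limma, with 5 of the 42 at an unadjusted p under 0.05. Kif23 averaged 5.76 ± 0.33 in naive females and 4.81 ± 0.84 in naive males (SD, n = 3 each), a difference of 0.95 ± 0.32 (adjusted p = 0.358). Naive male arrays 1 and 2, which had the 2 highest levels of unused genes, also had the lowest Mki67, at 4.32 and 4.95, against 6.13 in naive male array 3 and 5.92 to 6.01 in naive females. Without both arrays, 12 of 12 mitotic kinesins were called between effector and naive adults over the sexes, and 12 of 12 in males, where the 1 naive male array left is assumed to vary like the other groups.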

How the data were processed

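Total RNA of lung ILC2s was measured on 15 arrays in 5 groups of 3. Trizol was used for extraction and the Nugen Encore biotin kit for labelling, per the labels' protocols. The deposited values are log2 levels per feature, made with Affymetrix Expression Console and RMA per the submitters' processing notes. RMA corrects background, gives the probes of all arrays a common distribution and then summarises the probes of a feature, so a rise of many genes can lower the values of others. The deposited feature values still differed in distribution between arrays, with medians between 4.44 and 4.64. Software versions and any filter were not given in the sources used here.

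Of 41345 features, 23521 had 1 gene symbol in the platform annotation, 1814 several and 16010 none. The feature with the highest mean over all arrays stood for a gene, which left 22180 genes. No dim filter was used, so every member was tested. With a filter at percentile 40 of an array in at least 3 arrays, 37 of the 42 kinesin genes, and all 12 mitotic kinesins, would have been kept. One further feature named Kif3c together with another gene and was not used. A mean per group was fitted with limma 3.58.1 (R 4.3.3, eBayes, 10 residual and 5.04 prior degrees of freedom) to all 15 arrays. There were 7 comparisons, two-sided, with Benjamini-Hochberg adjustment over the 22180 genes. Over the sexes, female and male groups weighed equally. For arrays, their number limits the precision. The fit was tested on simulated data. Promoter sequences came from a RefSeq table of build GRCm38.p6 and were searched for fixed words, and figures were drawn with matplotlib 3.10.9.

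The members and the gene lists were chosen with earlier results of these data known. Named were all mitotic kinesins, every other kinesin called in at least 1 of the effector minus naive, neonate minus naive and neonate minus effector comparisons, Kif5b, Kif3a, Kif3b, Kif1b, Kif2a and Kif21b in any case, and up to 4 called members of each other list with the largest effector difference. Further genes (Kifc5b, Kif4-ps, Numa1, Racgap1, Cit, Dctn6, Spag9, Tuba1b, Ift43 and the kinesins at the ends of ranges) were named after their values were seen. Calls were recomputed under the alternatives of the closing section.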

Additional observations from a re-analysis of the deposited data

Results flagged for a closer look

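Kif2c was the 1 case of 40 looked at (20 named kinesins, in the 6 effector and in the 6 naive arrays) in which an array stood far from the rest of its group. Effector male array 3 was at 7.03 on the log2 scale, against 6.40 in the next highest effector array and 6.02 in the lowest, a gap of 0.629 of the group's range. Chance gives such a gap in about 1 of 20 groups.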

How the results depend on the processing

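Of 1560 recomputed single-kinesin values (60 results under 26 settings), 1448 kept their direction and side of the threshold, 70 lost the call, 31 gained it and 11 changed sign, and the cause was not tested. Mitotic kinesin calls between effector and naive adults stayed at 12 in all settings. Without each array in turn, mitotic calls ranged over 8 to 9 for neonates against naive adults and 6 to 11 against effector adults. The sign changes were in values that were not called: neonate minus naive adult gave, for Kif5b, 0.0078 after centring each array on its median, 0.10 without neonatal array 1, 0.02 without naive female array 3 and 0.04 without naive male array 3, for Kif3b, 0.17 and 0.20 without neonatal array 1 or 2 and 0.08 without naive male array 1, for Kif1b, 0.23 without neonatal array 2 and 0.02 without naive male array 3, and for Kifc1, -0.017 without neonatal array 3. Without 1 array these values ranged over -0.12 to 0.10 for Kif5b, -0.67 to 0.20 for Kif3b, -0.36 to 0.23 for Kif1b and -0.017 to 0.89 for Kifc1. For Kif5b, effector minus naive adult was -0.052 with the mean of the features of a gene.

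Other kinesins called between effector and naive adults numbered 4 as reported, 7 with the dim filter at percentile 60, 9 after centring and 8 with array weights, and between neonates and naive adults 0 as reported, 1 with the dim filter at percentile 40 or 60, 2 after a further quantile normalization and 1 without both naive male arrays 1 and 2, a setting chosen after seeing the data. Between neonates and effector adults they numbered 3, but 1 with array weights and 0 at 2-fold, and in females 3, but 5 with array weights and 0 at 2-fold. Without 1 array the ranges were 3 to 6, 0 to 1, 1 to 5 and, in females, 0 to 4. Of all 22180 genes, 5926 were called between effector and naive adults as reported and 6024 after centring.

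All genes called fell at 2-fold to 1627 (effector minus naive), 639 (neonate minus naive), 1158 (neonate minus effector), 1212 (females) and 2108 (males). Array weights gave 631 for neonate minus naive, 2107 for neonate minus effector and 3695 for females. Quantile normalization gave 2447 for neonate minus effector. With only the arrays compared, neonate minus naive gave 599 and the sex difference in naive adults 6. For the difference of responses between the sexes, 1 gene was called with the dim filter at percentile 60, with array weights or with the replicate block, and 7 without both naive male arrays 1 and 2. That setting gave 1755 genes in males and 51 for the sex difference in naive adults. Leaving out 1 array gave 4756 to 6467 (effector minus naive), 1091 to 1819 (neonate minus naive), 2165 to 4472 (neonate minus effector), 1168 to 2320 (females), 2467 to 4524 (males), 0 to 3 (difference of responses) and 14 to 110 (naive sexes). Centring put 23.6% of neonate minus effector calls as higher, against 40.8% as deposited.

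Arrays with the same replicate number deviated from their group means with r between -0.09 and 0.11, 1 of 30 pairs over 0.1. The labels give no batch or pairing, and deviations from means of 3 arrays cannot decide whether there was any. With the number as a replicate block, mitotic kinesin calls were 12, 9 and 8 in the 3 main comparisons, Kif4 (adjusted p = 0.057) and Kif3a (0.0506) lost their calls between neonates and effector adults, and Kif3b (0.0439) gained one between effector and naive adults. Where signals lie near the level of unused genes, arrays limit what a fold can show. In naive adults Kif15 and Kif4 had means under that level (4.09). The naive means of Kif11 (4.23), Kif14 (4.24), Kif18a (4.22) and Kif20a (4.34) lay close above it.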
